A study of Homo sapiens with 2 samples.

Results

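The cytosolic ribosomal protein genes encode the protein parts of the ribosomes that translate messenger RNA in the cytoplasm. They were chosen by their gene symbols, RPL and RPS symbols with a number together with RPLP0, RPLP1, RPLP2 and RPSA, leaving out pseudogenes and the RPS6K kinases. By this rule 59 of the 19775 genes with a probe set of their own were members, 38 of the large and 21 of the small subunit, read by 120 of 41091 probe sets. A further 15 ribosomal protein symbols lay only on probe sets that the annotation shares among several genes, and were not named from them.

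The cells were of the established line SU-DHL-1, derived from an anaplastic large cell lymphoma (ALCL) and bearing the fusion gene NPM1-ALK. They were given an siRNA against the homeobox gene HLX (siHLX) or a negative control siRNA (siCTR), both by electroporation, to search for genes downstream of HLX. Both groups share the cell line, the fusion and the transfection, and each was read on 1 Affymetrix HG-U133 Plus 2.0 array, with no second array for either. The differences below are log2 intensities with siHLX minus those with siCTR, they have no replicate check, and no test between the groups was run.

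A ribosome joins a small subunit, which reads the messenger RNA, to a large subunit, which forms the peptide bonds and lets the new chain leave through a tunnel. Most of their proteins are needed in equal numbers, and their messenger RNAs are among the most abundant of a growing cell. Many of these RNAs begin with a C followed by a run of pyrimidines, the 5′ terminal oligopyrimidine (TOP) tract, through which the kinase mTOR and the RNA-binding protein LARP1 control their translation. Mitochondria hold ribosomes of their own, built from a separate set of nuclear genes.

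Many member genes carry this tract at their annotated starts, a feature that the choice by symbol did not use. The windows below, from RefSeq on GRCh38.p14, run from 10 bases before the annotated start to 20 bases from it, and capitals mark the pyrimidine motifs CTTTTC or CTTTCC or CTCTTT or CCTTTT, which may overlap and were searched on the strand of the RNA. RPS6, the substrate of S6 kinase, is shown at chr9:19380217-19380246 on the minus strand, RPS16 at chr19:39435930-39435959 (minus) and RPS3 at chr11:75399508-75399537 (plus). RPL18, which had the highest difference of all members, is shown at chr19:48619159-48619188 (minus), RPL35 at chr9:124861938-124861967 (minus), and RPL27A, one of the lowest, at chr11:8682782-8682811 (plus). For contrast, the paralogs RPS27L at chr15:63157458-63157487 (minus) and RPL10L at chr14:46651762-46651791 (minus) hold none of these letters in the window.
RPS6: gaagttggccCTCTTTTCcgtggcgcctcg
RPS16: ccctagCTTTCCTTTTCcggttgcggcgcc
RPS3: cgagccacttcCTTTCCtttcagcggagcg
RPL18: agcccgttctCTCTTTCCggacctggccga
RPL35: cgcctacttcCTCTTTCCctcggagcgggc
RPL27A: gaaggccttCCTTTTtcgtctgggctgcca
RPS27L: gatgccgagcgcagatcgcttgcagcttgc
RPL10L: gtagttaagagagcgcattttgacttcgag

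Of the 59 members, 51 had a start in the RefSeq table. A start of C followed by 4 pyrimidines was present in 35 of these 51 genes (68.6%), in 8.7% of 69 mitochondrial ribosomal protein genes and in 5.14% of all 27305 genes. Leaving out the paralogs, it was present in 20 of 27 genes of the large and in 14 of 19 genes of the small subunit, and of the 5 paralogs with a start it was present in 1. At least 1 of the 4 motifs was found in the window of 45.1% of members, 5.8% of mitochondrial ribosomal protein genes and 5.31% of all genes. In the longer window from 250 bases before to 50 after the start, searched on both strands, CGGAAG, the core letters bound by ETS factors, was found in 66.7%, 55.1% and 22.6% in the same order. The letters GGGCGG of a GC box were found in 56.9%, 60.9% and 48.3%, and TATAAA in 9.8%, 4.35% and 14%. These matches are descriptions of letters and not of binding.

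**Figure D1:**
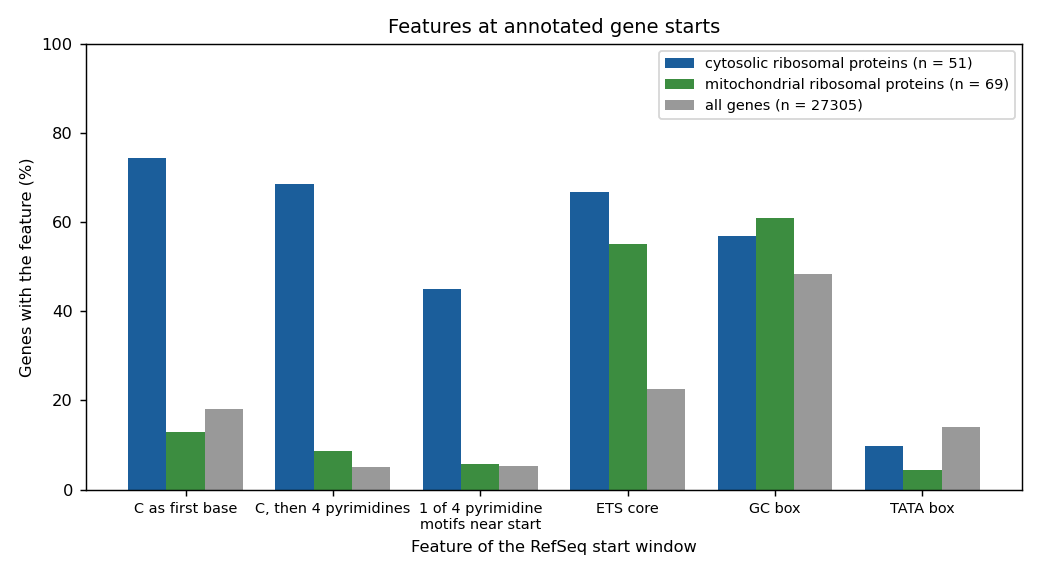
Percentage of genes (y axis) with each feature of the RefSeq start window (x axis) for 51 cytosolic ribosomal protein genes, 69 mitochondrial ribosomal protein genes and all 27305 genes with a start. A C followed by 4 pyrimidines is present in 68.6% of the members and in 5.14% of all genes, whereas the GC box is present in 56.9% of members and 48.3% of all genes.

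The siRNA target HLX, read by 1 probe set, was at 8.15 on the siCTR array and at 7.70 on the siHLX array (-0.45). The median intensity was 4.87 on both arrays. All 7 markers of ALCL were above the level threshold used below, with differences between -0.13 and 0.06. Also above it were 3 of 3 T cell, 2 of 4 B cell, 1 of 4 myeloid, 2 of 3 erythroid and 1 of 4 epithelial or stromal markers. The mean levels of these other lists lay between 4.20 and 5.88 with siCTR and between 4.43 and 5.515 with siHLX, with all 3 T cell markers lower, CD3E at -0.19, CD4 at -0.33 and CD247 at -0.62 (mean level 5.79 and 5.41). The differences of the B cell, myeloid, erythroid and epithelial or stromal markers ran from -0.50 to 1.02, the latter from COL1A2 below the threshold. Of the 24 control probe sets for poly-A spike RNA, named dap, lys, phe and thr, 23 were lower with siHLX (mean -0.29, SD 0.18). The paper does not say whether such RNA was added. The 18 hybridisation controls had a mean of -0.03 (SD 0.08). The 3′ probe sets minus the 5′ ones moved by -0.04 (ACTB) and -0.06 (GAPDH) from siCTR to siHLX. The part of these values in the results below was not tested. In such bulk RNA of 1 cell line, a change in some cells and a change in all cells cannot be told apart.

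The cytosolic ribosomal protein genes read almost the same on both arrays. For each gene the brightest of its probe sets was taken, and 58 of the 59 lay above the level threshold of 4.865, the median over all probe sets. RPL3L, a paralog of striated muscle, was below it, at 4.15 with siCTR and 3.41 with siHLX. Of the 58 genes, 37 were higher with siHLX, 17 were lower and 4 were equal, where 47.4% of all 12135 genes above the threshold were higher and 50.2% lower. Their median difference was 0.02, the middle quartiles ran from -0.03 to 0.05, and the median of all genes was -0.01. No member reached a difference of 0.2 upwards (1.15-fold), against 17.5% of all genes, and 2 of 58 reached it downwards, against 18.5%. At 2-fold, which 0.832% of all genes reached in either direction, there was no member.

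High intensity goes with small differences on these arrays, and 53 of the 58 members were at a level of 10 or more. Among all 1900 genes at that level, 3.63% were at least 0.2 higher and 5.05% at least 0.2 lower, while none of the 53 members was either. Of those members 34 were higher and 15 lower, where 44.4% of genes at that level were higher and 52.1% lower. A level of 12 or more was a limit set after values were seen. Of 247 other genes there, 0.405% were at least 0.2 higher and 1.62% at least 0.2 lower. None of the 52 members there was either, a count near these shares. The SD of the differences was 0.05 over these members and 0.08 over these other genes. The SD between probe sets of the same member, which were hybridised with the same RNA sample but need not read the same transcripts, was likewise 0.05 at a level of 10 or more, pooled over 17 genes.

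The direction of the small median depended on the choice of probe sets and moved with their level. When all probe sets above the threshold were averaged for each gene, 29 of 58 members were higher and 27 lower, with a median of 0.005. Over the 32 members with a probe set that lacked the suffix _s_at or _x_at, which marks probe sets that can read several transcripts or related sequences, the median was -0.035, 13 were higher, and all genes so read had 0.00. That choice also lowered the level of the probe sets used. Among single probe sets without the suffix, the 15 at a level of 10 or more had a median of 0.03 (10 higher, 5 lower), and the 25 below it had -0.08 (5 higher, 19 lower). Many ribosomal protein genes have near-identical processed pseudogenes, so what the _s_at and _x_at probe sets read is uncertain for single genes. When the poly-A controls were set equal on both arrays, all 58 members were higher, with a median of 0.31, and the median of all genes was then 0.28.

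**Figure D2:**
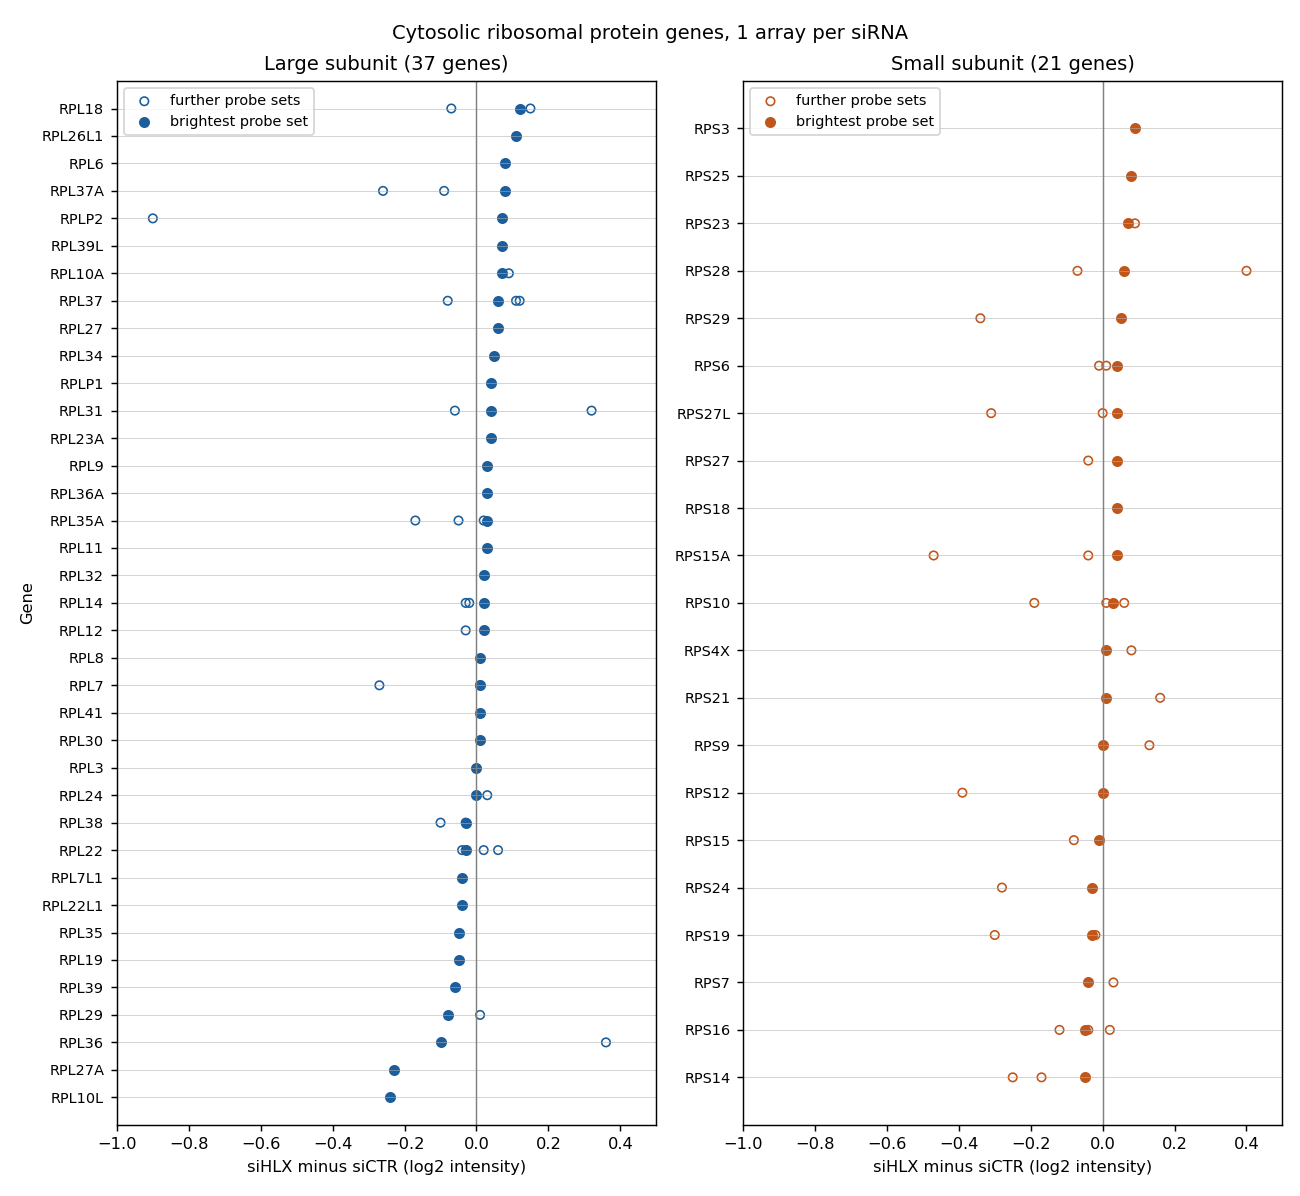
Log2 intensity with siHLX minus siCTR (x axis) for each cytosolic ribosomal protein gene above the threshold (y axis), with 37 genes of the large subunit on the left and 21 of the small subunit on the right. Filled circles are the brightest probe set of a gene, which lie between -0.24 and 0.12. Open circles are further probe sets of the same gene above the threshold, which reach from -0.90 to 0.40.

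The large and the small subunit lay side by side. In the large subunit 24 of 37 genes were higher and 11 lower, with a median of 0.02, and in the small subunit 13 of 21 were higher and 6 lower, with a median of 0.03. The large subunit ran from -0.24 to 0.12 and the small from -0.05 to 0.09. The difference of the medians, large minus small, was -0.01. It became 0.015 when all probe sets above the threshold were averaged for each gene. Without the _s_at and _x_at probe sets it was 0.01, and with the probe sets of several genes added 0.005.

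In the small subunit, proteins around the channel of the messenger RNA were among both extremes. RPS3, at the entry of the messenger RNA, read 13.36 with siCTR and 13.45 with siHLX, and its 0.09 was the highest of the subunit. Of 98 genes of like level, within 0.5 log2 units, 7.14% were as far up. Such sets, here and below, include the gene itself and other members. RPS28, near the exit, read 13.41 and 13.47. RPS14, on the platform beside the exit and known from the 5q- syndrome, read 14.01 and 13.96, so that 2 of the 3 measured genes of this list of 7 were higher and 1 lower.

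RPS23, a protein of the decoding centre, read 14.03 with siCTR and 14.10 with siHLX, and its other probe set was also higher. RPS25, which takes part in initiation at viral internal entry sites, read 13.15 and 13.23, and RPS29 read 13.67 and 13.72. RPS6, RPS15A, RPS18, RPS27 and RPS27L shared a difference of 0.04. At the other end, RPS16, whose tail reaches towards the transfer RNA, read 14.25 and 14.20. RPS7 had -0.04, RPS19 and RPS24 had -0.03, RPS15 had -0.01, and RPS9 and RPS12 were at 0.00. No gene of this subunit thus came near the limit of 0.2 on its brightest probe set. A dim probe set of RPS9, with a mean below the threshold, read 5.41 with siCTR and 3.74 with siHLX (-1.67).

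In the large subunit RPL18 had the most positive value (0.12), at 13.32 with siCTR and 13.44 with siHLX. Of 96 genes of like level 5.21% were as far up, and its further probe sets had 0.15 and -0.07, so they did not share a direction. RPL6 read 13.46 and 13.54. RPL10A, the protein of the L1 stalk that handles the leaving transfer RNA, read 13.70 and 13.77, with its other probe set also higher. RPL37A read 14.04 and 14.12, but both its further probe sets were lower, at -0.26 and -0.09. RPL27 and RPL37 had 0.06.

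The lowest readings of the large subunit came from 2 genes that were not bright on probe sets of their own. RPL27A read 9.79 with siCTR and 9.56 with siHLX on the only probe set not shared with other genes. Of 1696 genes of like level 6.78% were as far down. RPL10L, the testis paralog of RPL10, read 6.52 and 6.28, and of 1713 genes of like level 21.2% were as far down. With the probe sets of several genes added, 1 of 73 members was at least 0.2 lower, instead of 2 of 58. Among bright genes RPL36 was lowest, at 12.78 and 12.68, yet its dimmer probe set had 0.36. RPL29 read 13.62 and 13.54 and its other probe set had 0.01.

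The functional sites of the large subunit gave small values of both signs. Around the peptide exit tunnel, 5 of 8 listed genes were measured and 2 were higher and 3 lower. RPL39, which lines the inner tunnel, read 13.92 with siCTR and 13.86 with siHLX, RPL19 read 13.65 and 13.60, and RPL35, at the rim, read 13.46 and 13.41. RPL23A, the docking site of factors that meet the new chain, read 14.05 and 14.09, and RPL31 read 13.47 and 13.51. Of the P stalk, which recruits elongation factors, RPLP1 read 13.87 and 13.91. RPLP2 read 6.37 and 6.44 on 1 probe set and 5.82 and 4.92 on the other. Among probe sets above the threshold this was the widest disagreement of any member (SD 0.69). Both probe sets of RPLP2 lay far below the level of RPLP1, and whether they read its main transcript was not tested. RPL11, which with RPL5 and 5S RNA can hold MDM2 and so free p53, read 13.33 and 13.36.

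The paralogs, extra copies that often belong to a single tissue, lay on both sides of 0. RPL26L1 read 10.38 with siCTR and 10.49 with siHLX, and 16.8% of 1096 genes of like level were as far up. RPL39L read 8.14 and 8.21, RPL22L1 read 12.71 and 12.67, and RPL7L1, an assembly factor of the large subunit, read 12.06 and 12.02. RPS27L, a target of p53, read 12.60 and 12.64 on its brightest probe set, with -0.31 and 0.00 on the others. Of the 6 paralogs above the threshold 3 were higher and 3 lower, with a median of 0.00.

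The members were also split by evolutionary age, by disease and by their starts. Genes with a bacterial counterpart had a median of 0.015 (10 genes) in the large and 0.04 (9 genes) in the small subunit. Those without had 0.025 (22 genes) and 0.01 (11 genes), with the paralogs left out of this split. Genes mutated in Diamond-Blackfan anaemia, a red cell aplasia, had a median of 0.035 over 14 measured of 20, with 10 higher and 4 lower, RPL18, RPL27 and RPS28 highest and RPL35 and RPS7 lowest. Members with a C and 4 pyrimidines at the start had a median of 0.02 (35 genes), and those without had 0.025 (16 genes).

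**Figure D3:**
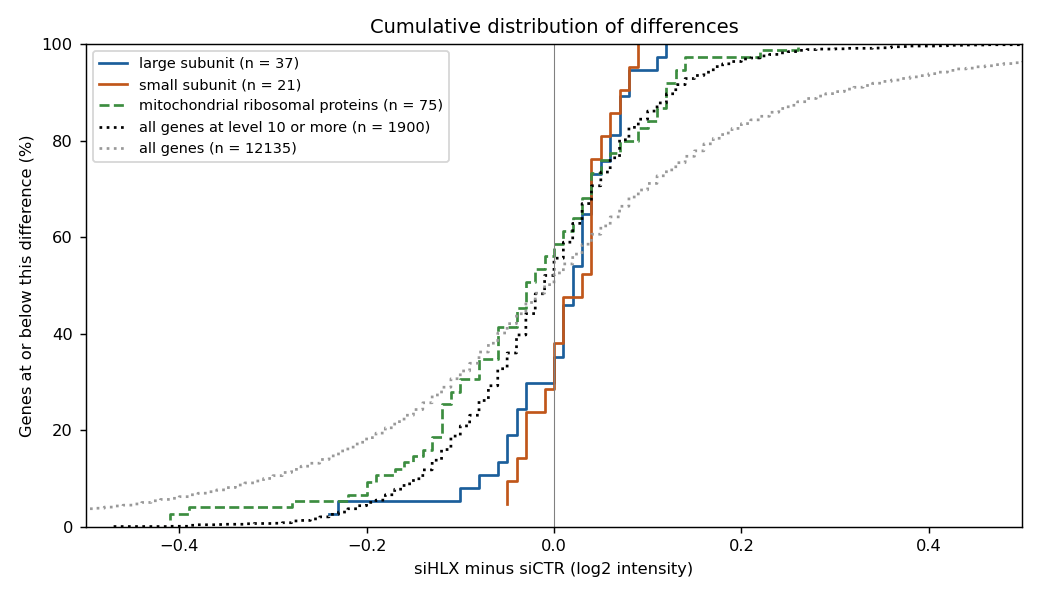
Percentage of genes (y axis) at or below each log2 difference, siHLX minus siCTR (x axis, from -0.5 to 0.5), for 37 large and 21 small subunit genes, 75 mitochondrial ribosomal protein genes, 1900 genes at a level of 10 or more and all 12135 genes. Both cytosolic subunits rise steeply around medians of 0.02 and 0.03, and the mitochondrial genes rise more slowly around -0.03.

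The genes of the mitochondrial ribosome, the group most alike in function, spread more widely. Of 75 above the threshold 31 were higher and 42 lower, with a median of -0.03, 2 at least 0.2 higher and 7 at least 0.2 lower. MRPS14 (0.26) and MRPS31 (0.22) were highest, and MRPL16 and MRPL38 (both -0.41) lowest. The cytosolic minus the mitochondrial median was 0.05. The mitochondrial genes lay at levels between 7.94 and 12.51, mostly below those of the members, and the difference between the groups was not tested.

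Genes that act with the ribosomal proteins showed differences of both signs. Among structural proteins outside the symbol rule, FAU, made as a fusion with a ubiquitin-like protein, read 13.13 with siCTR and 13.11 with siHLX, and RPL36AL, at 12.36 and 12.11, had a lower value (-0.25) than any bright member. Of 15 measured translation factors and other TOP messages 9 were higher and 5 lower (median 0.01), from EIF4B at 0.18 and EEF1D and EIF3E at 0.08 to EEF1A1 at -0.10 and EIF3H at -0.16. Of 12 regulators of TOP translation 4 were higher and 6 lower (median -0.015). MTOR read 7.12 and 6.72, TSC2, which restrains it, read 6.84 and 6.47, and LARP1 read 11.77 on both arrays. MTOR and TSC2, both dim, were the 2 of 12 at least 0.2 lower, near the 18.5% of all genes. RPTOR had 0.09 and RPS6KB1 0.04. Of 8 chaperones of single ribosomal proteins 6 were lower (median -0.08), with GRWD1 and BCCIP at -0.18 and AAMP at 0.06 and PDCD2 at 0.05.

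The dim further probe sets of the members gave another picture from the brightest ones. The 23 further probe sets at a level of 10 or more had a median of 0.01, with 14 higher, 9 lower and none past 0.2. Described after values were seen, 33 further probe sets of 23 members lay between the threshold and a level of 10. Of these 24 were lower (72.7%) and 8 higher, with a median of -0.08, where 49.4% of all 9698 such probe sets were lower, with a median of 0.00. At least 0.2 lower were 10 (30.3%, against 23.9% of all) and at least 0.2 higher were 3 (9.09%, against 23.2%). Among 152 such probe sets of 96 other genes with a brightest probe set at 12 or more, 53.9% were lower (median -0.025). Of these 19.1% were at least 0.2 lower and 17.8% at least 0.2 higher. Of the members' dim further probe sets, 14 of 17 in the small subunit were lower with a median of -0.17, and 10 of 16 in the large with -0.045.

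The lowest of these in the small subunit was a probe set of RPS15A, 6.73 with siCTR and 6.26 with siHLX, followed by RPS12 (-0.39), RPS29 (-0.34), RPS27L (-0.31), RPS19 (-0.30), RPS24 (-0.28) and RPS14 (-0.25). In the large subunit they were RPLP2 (-0.90), RPL7 (-0.27) and RPL37A (-0.26). RPS28 (0.40), RPL36 (0.36) and RPL31 (0.32) were the 3 above 0.2. In all 10 genes with a further probe set at least 0.2 lower, the brightest probe set lay between -0.05 and 0.08. Except for RPLP2, whose brightest probe set was itself dim, these further probe sets were much dimmer than the brightest ones. Whether both read the same transcripts was not tested. Between the threshold and a level of 10, probe sets of the same member had a pooled SD of 0.28.

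**Figure D4:**
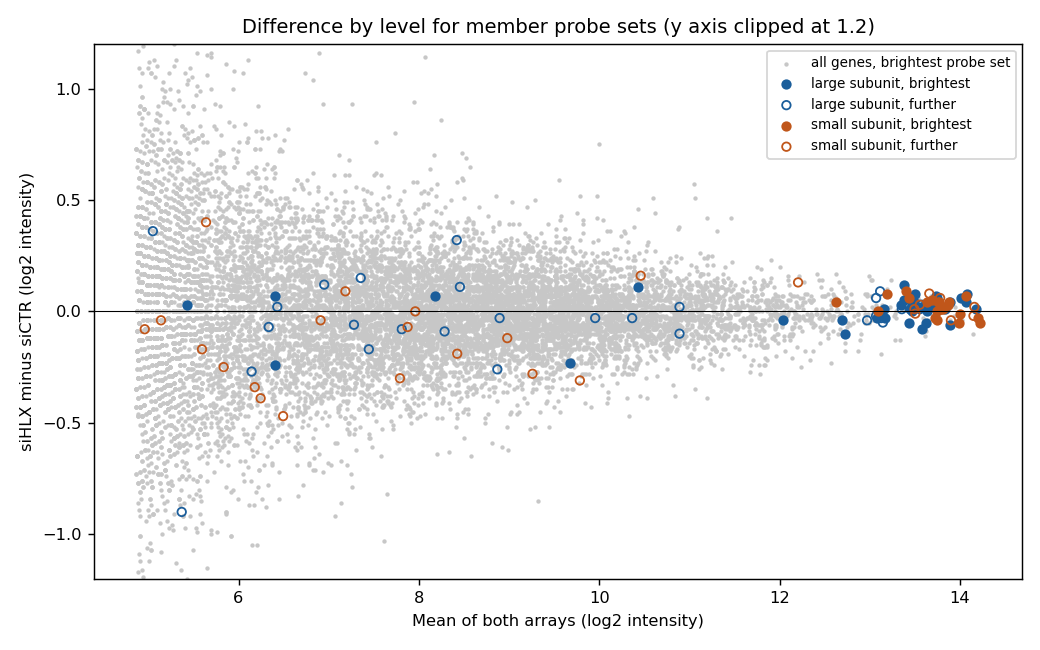
Log2 difference, siHLX minus siCTR (y axis, cut at both ends), against the mean of both arrays in log2 intensity (x axis) for all genes in grey and the probe sets of cytosolic ribosomal protein genes in colour. The brightest probe sets of the members, mostly above 12, lie near 0, and their further probe sets at levels below 10 are more often below 0 (24 of 33).

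At the top of the scale the normalisation limits what can be seen. Among the 100 brightest probe sets 35 belonged to members, and 58 with the probe sets that several genes share. The mean of the 100 highest values of each array, taken separately, was 13.86 on both. Quantile normalisation brings the values at each rank close together, here to within 0.06. The highest values were 14.25 with siCTR and 14.20 with siHLX, a gap as large as the difference of RPS16, which held both. A shift shared by the brightest probe sets would largely be removed from these data, and each difference places a member relative to other bright genes. The 65 shared probe sets, 56 of them with a small nucleolar RNA as well, had a median of 0.00 over the 48 at a level of 10 or more, with 17 higher and 23 lower.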

How the data were processed

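Values from 2 arrays were used, 1 for siCTR and 1 for siHLX, grouped by the treatment given in the labels. Each deposited value was a log2 intensity of a probe set with 2 decimals, after RMA background correction and quantile normalisation by the authors. RMA, limma and affy are listed in the submitters' processing notes, with versions not given in the sources used here. Value by value in rank order, the arrays lay within 0.06 of each other. Ratios to the sample mean that the methods describe were not used here. The number of arrays limits the precision.

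The platform annotation gave 1 gene for 41091 of the 54613 probe sets besides the controls, several genes for 1801 and none for 11721. Symbols were checked by Entrez identifier against RefSeq genes of GRCh38.p14, where 41037 were found and 0 changed. The brightest probe set by its mean stood for each gene and was used from a level of 4.865 upwards. Differences of at least 0.2 were counted. Start windows came from the RefSeq promoter table, and protein sequences were not analysed here.

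The members and gene lists were chosen with earlier results of these data known. Named were HLX, the 8 highest and 8 lowest members of each subunit, members past 0.2, paralogs and members of the small functional lists. Also named were the 3 members with the widest spread between probe sets above the threshold, and the 2 highest and 2 lowest of other lists. Of these the text gives values or differences. Alternatives concerned the probe set of a gene, the threshold, the scaling, the limit and the paralogs. The medians, counts and quantile normalisation were checked on shuffled or altered values of these data, some with known shifts added. The choice of probe sets, the threshold and the start windows were not checked in this way. Python 3.11.15, numpy 2.4.6, pandas 2.3.3, statsmodels 0.14.6 and matplotlib 3.10.9 were used.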

Additional observations from a re-analysis of the deposited data

How the results depend on the processing

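No paired analysis was possible because each group had 1 array. For the same reason no array could be left out and no result had a replicate error. Dim probe sets spread most, with an SD between probe sets of a member of 0.28 between the threshold and a level of 10. Across 12 alternatives and 1 further scaling, 83 values stayed near those reported, 27 moved and 11 changed sign. Near means within 0.0465 for a median, the SD between bright probe sets of a member, and within 1.5 times for a count. This bound is wider than the members' median itself, so it does not show that the median was stable. Centring on the median, subtracting a lowess trend, renewed quantile normalisation and no threshold moved none of the medians or counts beyond these bounds.

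When all probe sets above the threshold were averaged for each gene, the small subunit median was -0.005, large minus small 0.015, and 27 members were lower. Without _s_at and _x_at probe sets (32 members), the medians were -0.035 for all members, -0.03 for the large and -0.04 for the small subunit. Large minus small was 0.01, and 13 members were higher. At least 0.2 lower were 5 of 32, where 18.5% of all genes were so on their brightest probe sets. The share of all genes without _s_at and _x_at probe sets was not counted. Of 8 dim further probe sets 6 were lower. A threshold at the 75th percentile left 1 of 55 members at least 0.2 lower and 13 of 18 dim further probe sets lower. Leaving out the paralogs left 1 of 52 at least 0.2 lower. A limit of 0.1 gave 2 members higher, and a limit of 0.3 gave 0 lower. Chosen after seeing the data, the addition of probe sets with several genes gave 73 members and large minus small 0.005. Of the 73 members 1 was at least 0.2 lower, 39 were higher than 0 and 27 lower.

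Scaled to equal poly-A controls, the medians were 0.31 for all members and the large and 0.32 for the small subunit, 0.26 for mitochondrial genes and 0.21 for dim further probe sets, of which 6 of 32 were lower. Then 58 members were higher, 0 lower, 55 at least 0.2 higher and 0 at least 0.2 lower, and the median of all genes was 0.28. The trpn probe sets were left out of these controls after values with them had been seen. With them the medians were 0.27, 0.27, 0.28, 0.22 and 0.17 in the same order, 10 of 32 dim further probe sets were lower, 49 members were at least 0.2 higher and the median of all genes was 0.24.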
